A study of Mus musculus with 6 samples.

Results

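NADPH oxidase subunits and antioxidant enzymes, which make or remove reactive oxygen species, were followed in mouse aorta at a young and an older age, and none of the 10 genes passed the test over all genes. They are 4 oxidase subunits (Nox4, Cybb, Cyba and Ncf1) and 6 antioxidant enzymes (Sod1, Sod2, Sod3, Cat, Gpx1 and Gpx3). They were chosen by name, with earlier results of these data known. Their rows were taken from the table of counts by gene symbol: 10 of 55335 genes in the table and 10 of the 16612 genes with enough counts to be tested. Aorta came from wild-type C57BL/6 mice aged 6 weeks (young, 3 mice) or 6 months (aged, 3 mice), with neither transgene nor treatment in any group. The study calls the mice male, and the perivascular fat was dissected away before about the same length of vessel was taken from each animal. RNA of the whole vessel wall was sequenced, so that all cell types of the wall contributed to each value. Levels are given as CPM, counts scaled to a common library size after TMM (trimmed mean of M values) correction, and comparisons of level between genes use FPKM, which also divides by transcript length.

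NADPH oxidases move electrons from NADPH across a membrane to oxygen. The catalytic subunit Cybb needs the membrane partner Cyba and cytosolic proteins, among them Ncf1 and Ncf4, and a Rac GTPase, and it is best known from phagocytes, whereas Nox4 needs Cyba but none of the cytosolic organizers, gives mainly hydrogen peroxide and is known from vascular smooth muscle and endothelium. Superoxide dismutases turn superoxide into hydrogen peroxide in the cytosol (Sod1), in mitochondria (Sod2) and outside the cell (Sod3), and catalase and the glutathione peroxidases remove the peroxide.

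Gpx1 and Gpx3 are selenoproteins, in which a TGA codon inside the reading frame is read as selenocysteine, the residue at the active site. Because the genes of the selenium supply are described further on, the coding stretch around this codon is shown for both, 5′ to 3′ on the coding strand, from GENCODE M21 on GRCm38, with the selenocysteine codon in capitals. In Gpx1 it is codon 47 of 201 and the stretch lies in the coding sequence at chr9:108339424-108339480. In Gpx3 it is codon 73 of 226, and the stretch crosses an exon junction on chromosome 11 and so has no single interval.
Gpx1: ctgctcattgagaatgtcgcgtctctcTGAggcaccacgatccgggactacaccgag
Gpx3: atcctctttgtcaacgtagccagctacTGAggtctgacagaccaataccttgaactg
The stretches had the same base at 26 of 57 positions (45.6%).

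Promoter sequence of 250 bases before the RefSeq gene start (GRCm38.p6) was found for 9 of the 10 genes, all except Sod3. On both strands 4 motifs were searched: the antioxidant response element (TGACNNNGC), PU.1 (GAGGAAGT), C/EBP (TTGCNNAA) and Sp1 (GGGGCGGGG), none of whose matches overlapped in these genes. Sod1 was the only gene of the 9 with a match to the antioxidant response element, which 10.2% of 32851 promoters hold. Its first base lay 56 bases before the start and it reads on the minus strand. Sod1 also held an Sp1 match 143 bases before the start on the minus strand and Sod2 held 1 on the plus strand 68 bases before the start, against 10.4% of all promoters, and PU.1 (2.44%) and C/EBP (9.56%) matched none of the 9. The stretch of the Sod1 promoter that holds its matches, at chr16:90220609-90220724 on the plus strand, is shown with both matches in capitals, the Sp1 match first.
Sod1 promoter: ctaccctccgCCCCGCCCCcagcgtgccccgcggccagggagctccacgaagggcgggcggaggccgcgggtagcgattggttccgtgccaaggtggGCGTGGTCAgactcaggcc

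Library totals lay between 31049632 and 45832185 counts. Smooth muscle genes were abundant in every library, with 27960 to 40140 CPM over 6 markers such as Acta2 and Myh11, which fits the labelled tissue. Genes of the mitochondrial genome took 14.9 to 21.2% of counts in the young libraries and 23.1 to 30.4% in the aged, and the TMM factors of the groups did not overlap either, and values with unscaled library sizes are given where they change what is said of a gene. Young replicate 1 stood apart: it had 306 CPM of Xist and 1.09 CPM of Ddx3y, against at most 0.636 and at least 44.8 CPM in the other 5 libraries, which goes against the stated sex, and its clock genes Arntl (49.8 CPM) and Dbp (10.1 CPM) lay outside the range of the others (0.747 to 8.14 and 125 to 436 CPM). Aged replicate 2 had 1422 CPM of Ucp1, the uncoupling protein of brown fat, against 45.2 to 361 CPM in the others. Aged replicate 3 stood apart in endothelial markers, whose sum over 6 genes was 1587 CPM there against 328 to 471 CPM in the other 5 libraries. Values without single libraries are given where they move a difference most.

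The question of the comparison was whether these genes differ in level between aorta of 6 weeks and of 6 months. With edgeR (quasi-likelihood, Benjamini-Hochberg over all genes tested), 0 of the 10 genes and 0 of the 16612 genes tested (0%) had an adjusted p under 0.05. At an unadjusted p under 0.05, Ncf1 and Gpx3 were higher in aged aorta, 2 of 10 genes beside 5.56% of all genes tested, and 0 of 10 were lower, beside 4.82%. For Nox4, Ncf1, Sod1 and Gpx3 all 3 aged libraries lay above all 3 young libraries, 4 of 10 genes beside 7.74% of all genes, and for none did all aged libraries lie below, beside 8.78%. DESeq2 called 2.26% of the genes to which it gave an adjusted p, and none of the 10. All 10 genes had a positive log2 fold change (aged over young), between 0.15 and 1.33, with a median of 0.38 beside 0.02 for all genes tested. With library sizes left unscaled, the median of all genes was -0.22 and that of the 10 genes 0.15, 9 of the 10 log2 fold changes were positive, and all 10 lay above the median of all genes.

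**Figure D1:**
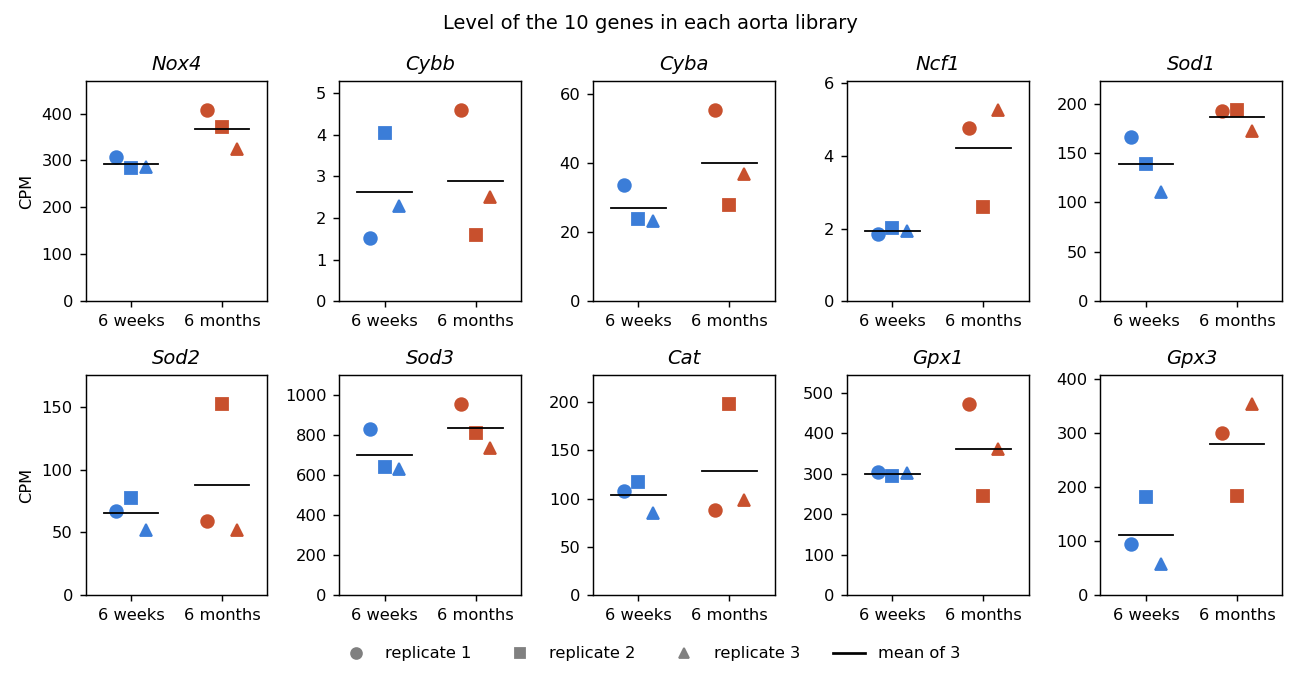
Level of each of the 10 genes in CPM (linear axes from 0, a scale of its own in each panel) in the 3 libraries of 6 weeks (blue) and the 3 of 6 months (red), with the marker shape giving the replicate number and the line the mean of 3. The aged libraries all lie above the young ones for Nox4, Ncf1, Sod1 and Gpx3, while for Sod2 and Cat aged replicate 2 alone lies above the young libraries.

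Among the catalytic subunits, Nox4 (chr7:87246096-87398710) was by far the more abundant. Its level was 307, 284 and 287 CPM in young replicates 1, 2 and 3 and 408, 371 and 324 CPM in aged replicates 1, 2 and 3. The young values were nearly alike and all aged values lay above them. Nox4 had a log2 fold change of 0.33 ± 0.15 (SE), with an edgeR p of 0.070 and an adjusted p of 0.517. Without the TMM scaling the groups overlapped, at 324, 311 and 317 CPM in young and 385, 347 and 286 CPM in aged aorta, and the log2 fold change came to 0.10. On the FPKM scale, which is not TMM-scaled either, aged replicate 3 was the lowest of the 6 libraries.

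Cybb (chrX:9435252-9487771), the catalytic subunit of the phagocyte oxidase, was low everywhere, with 60 to 153 counts per library. Its level was 1.53, 4.05 and 2.30 CPM in the young replicates and 4.60, 1.59 and 2.51 CPM in the aged replicates. The groups spanned nearly the same range, and young replicate 2 and aged replicate 1 were the high libraries. The log2 fold change of 0.15 ± 0.52 (SE, adjusted p of 0.936) was smaller than its error. This value was -0.13 without young replicate 1, -0.36 without aged replicate 1 and -0.091 without the TMM scaling.

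Cyba (chr8:122424776-122432930), the partner that both Cybb and Nox4 need, stood at 33.7, 23.7 and 23.3 CPM in young and 55.4, 27.8 and 36.7 CPM in aged aorta. Young replicate 1 lay within the aged range and aged replicate 1 was the highest library. For Cyba the log2 fold change was 0.57 ± 0.28 (SE), with an adjusted p of 0.533. It was 0.78 without aged replicate 2 and 0.77 without young replicate 1, both with an unadjusted edgeR p under 0.05, and 0.26 without aged replicate 1. With unscaled library sizes it was 0.34.

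Ncf1 (chr5:134220053-134229625), the cytosolic organizer of the phagocyte oxidase, had the smallest p of the 10 genes in edgeR with the main settings. Several other settings put another gene first, such as Gpx3 in DESeq2, limma on FPKM and edgeR without a filter. Without young replicate 1 it was Sod1, and with aged replicate 2 left out too it was Cyba. Ncf1 stood at 1.86, 2.01 and 1.92 CPM in the young replicates and 4.78, 2.60 and 5.27 CPM in the aged replicates, from 90, 70 and 66 counts and 159, 98 and 149 counts. The young libraries were nearly alike, and all aged libraries lay above them, aged replicates 1 and 3 the furthest. The difference was 1.12 ± 0.35 (SE) on the log2 scale, a 2.18-fold higher mean, with an edgeR p of 0.0137 and an adjusted p of 0.390 (0.109 by DESeq2). It is the only gene of the 10 whose groups stayed apart without the TMM scaling, at 1.96, 2.20 and 2.13 CPM against 4.51, 2.43 and 4.67 CPM. In the annotation 11.1% of the exon bases of Ncf1 overlap Gtf2ird2 on the opposite strand, and whether reads were counted by strand is not given in the sources used here. Gtf2ird2 itself stood at 3.41 to 9.44 CPM with a log2 fold change of 0.04.

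Macrophage markers were higher in the same libraries. All 10 macrophage markers were tested and had a positive log2 fold change (median 1.35). At an unadjusted edgeR p under 0.05, 8 were higher, beside 5.56% of all genes tested. None passed adjustment in edgeR and 5 did in DESeq2, beside 2.26% of the genes to which DESeq2 gave an adjusted p. The summed level of the macrophage markers was 97.1 to 131 CPM in young aorta and 439, 137 and 291 CPM in aged replicates 1, 2 and 3. Among them Itgam, which encodes CD11b, stood at 0.35 to 1.05 CPM in young and 3.76 to 5.06 CPM in aged aorta, whereas Ptprc, which encodes the leukocyte antigen CD45, stood at 0.87 to 4.28 and 1.40 to 3.04 CPM, with young replicate 2 highest. Of 8 neutrophil markers 3 were tested, and Ly6g was at 0 in all 6 libraries. The sum of all 8 was 0.475 to 1.95 CPM in young and 2.47 to 4.53 CPM in aged aorta. In RNA of a whole vessel wall, more cells of a type and more RNA per cell cannot be told apart. Cybb followed the summed macrophage markers only in part. It was highest in aged replicate 1 (4.60 CPM), but stood at 4.05 CPM in young replicate 2 and 2.51 CPM in aged replicate 3. The part of the macrophage signal in the Ncf1 and Cybb values was not tested.

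**Figure D2:**
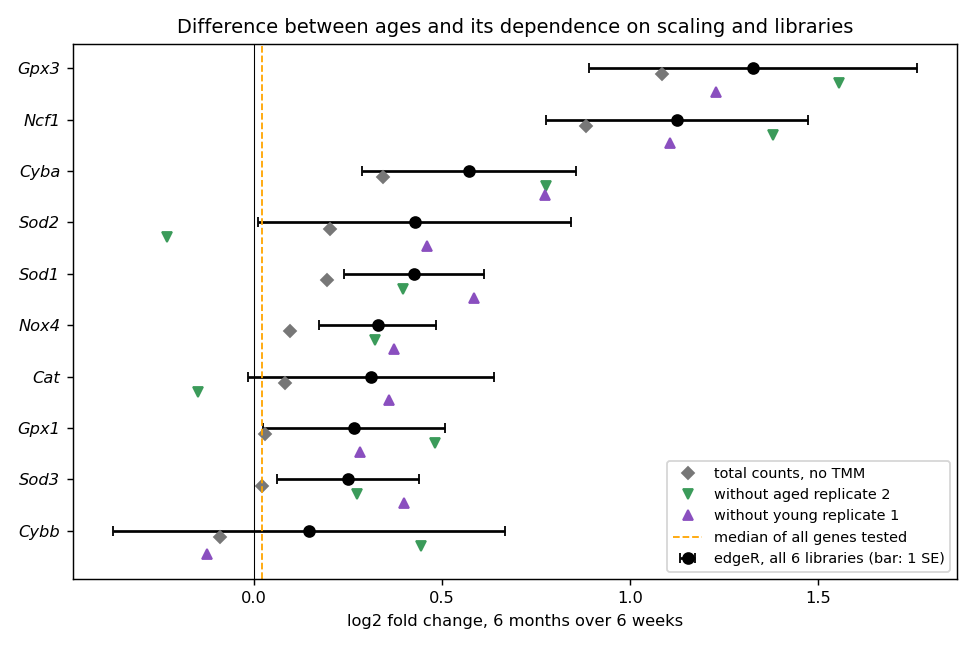
Log2 fold change of aged over young aorta for each of the 10 genes (black points, bars of 1 SE, edgeR on all 6 libraries), with the values under unscaled library sizes (grey diamonds), without aged replicate 2 (green) and without young replicate 1 (purple). The values of Sod2 and Cat fall below 0 without aged replicate 2, to -0.23 and -0.15. Those that rise without it include Gpx3, Ncf1, Cyba, Cybb and Gpx1. The dashed line marks the median of all genes tested.

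Sod1 (chr16:90220754-90226329), the cytosolic copper-zinc dismutase, stood at 166, 139 and 110 CPM in young and 193, 194 and 172 CPM in aged aorta. All aged libraries lay above the young ones, the nearest pair being aged replicate 3 and young replicate 1. Between the ages the log2 fold change was 0.43 ± 0.19 (SE), with an edgeR p of 0.0558 and an adjusted p of 0.493. Without young replicate 1 it was 0.59, with an unadjusted edgeR p of 0.0190 and still no adjusted p under 0.05. Without the TMM scaling the groups overlapped, with 176 CPM in young replicate 1 and 152 CPM in aged replicate 3, and the log2 fold change was 0.19. Of its distinct 50-base stretches 3.42% also occur in the pseudogene Gm8566, which had 0 to 12 counts per library.

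Sod2 (chr17:13006846-13040063), the mitochondrial manganese dismutase, stood at 67.4, 77.5 and 51.7 CPM in young and 59.3, 153 and 52.2 CPM in aged aorta. Aged replicate 2 alone lay far above the rest, and the other aged libraries lay inside the young range. Its log2 fold change was 0.43 ± 0.42 (SE, adjusted p of 0.731) and turned to -0.23 without aged replicate 2. Of 10012 distinct 50-base stretches of Sod2 transcripts 2107 (21%) also occur in transcripts of 415 other genes. A single one of these, the long noncoding RNA gene AC166110.4, holds 17.6% of the stretches. Part of the Sod2 reads could therefore have been assigned to more than 1 gene.

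Cat (chr2:103453849-103485160), the peroxisomal catalase, had the same shape, at 108, 117 and 84.6 CPM in young and 87.7, 199 and 98.2 CPM in aged aorta. Aged replicate 2 was again the highest library, and aged replicates 1 and 3 lay within the young range. For Cat the log2 fold change was 0.31 ± 0.33 (SE, adjusted p of 0.752), and -0.15 without aged replicate 2.

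The sum of the fat markers was highest in that library too. The summed level of 7 adipocyte markers was 984, 1586 and 457 CPM in young replicates 1, 2 and 3 and 722, 3314 and 1042 CPM in aged replicates 1, 2 and 3. Of these, Fabp4 made up 1518 CPM and Ucp1 1422 CPM in aged replicate 2. Cfd and Lep did not peak there. Cfd stood at 55.5 CPM in aged replicate 2 and 185 CPM in young replicate 1. Lep stood at 2.89 CPM in aged replicate 2 and 3.59 CPM in young replicate 2. None of the 7 markers had an unadjusted p under 0.05. The part of fat in the Sod2 and Cat values was not tested.

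Sod3 (chr5:52363791-52371418), the secreted dismutase that binds the matrix of the vessel wall, had the highest count of the 10 genes and a small difference between the ages. Its level was 833, 642 and 633 CPM in young and 959, 809 and 739 CPM in aged aorta. Young replicate 1 lay above aged replicates 2 and 3, so the groups overlapped. Sod3 had a log2 fold change of 0.25 ± 0.19 (SE, adjusted p of 0.661), 0.40 without young replicate 1 and 0.02 without the TMM scaling.

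Gpx1 (chr9:108338903-108340343), the intracellular glutathione peroxidase, stood at 303, 294 and 302 CPM in young and 473, 245 and 362 CPM in aged aorta. The young libraries were almost equal, and the aged ones lay on both sides of them, with aged replicate 2 the lowest of all 6. Gpx1 had a log2 fold change of 0.26 ± 0.24 (SE), with an adjusted p of 0.713. Without aged replicate 2 it was 0.48, with an unadjusted edgeR p of 0.0306, without aged replicate 1 it was 0.018, and with limma on log2(FPKM + 1) it was -0.0062.

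Gpx3 (chr11:54902453-54910377), the secreted peroxidase of plasma, showed the widest spread and the largest difference of the 10 genes. Its level was 94.2, 182 and 58.1 CPM in young replicates 1, 2 and 3 and 300, 184 and 355 CPM in aged replicates 1, 2 and 3. Young replicate 2 and aged replicate 2 were almost equal and kept the groups only just apart, while the lowest and highest libraries differed 6.11-fold. The log2 fold change was 1.33 ± 0.44 (SE), a 2.51-fold higher mean, with an edgeR p of 0.0181 and an adjusted p of 0.403 (0.0672 by DESeq2). Without the TMM scaling the groups overlapped, with 199 CPM in young replicate 2 and 172 CPM in aged replicate 2. Its unadjusted edgeR p was 0.0561 without aged replicate 3, where Ncf1 also missed the threshold at 0.0544, and 0.0593 without young replicate 1. The endothelial markers were likewise highest in aged replicate 3, and their part in the Gpx3 and Ncf1 values was not tested.

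Summed markers of fibroblasts, like those of macrophages, were highest in aged replicates 1 and 3, the libraries with most Gpx3. Among the fibroblast markers Col1a1 did not share this, at 1559 CPM in young replicate 3 and 1282 CPM in aged replicate 3. The sum of 6 fibroblast markers was 1803, 2065 and 2883 CPM in young replicates 1, 2 and 3 and 6446, 1723 and 4607 CPM in aged replicates 1, 2 and 3. Of the 6, 4 had an unadjusted edgeR p under 0.05, all higher, beside 5.56% of all genes tested. The order within the young group was not shared: young replicate 3 had the most fibroblast signal and the least Gpx3. All 6 smooth muscle markers had a negative log2 fold change (median -0.32), at a summed 32232 to 40140 CPM in young and 27960 to 33326 CPM in aged aorta. At an unadjusted edgeR p under 0.05, 3 of these 6 were lower, beside 4.82% of all genes tested. For 2 of the 6 all aged libraries lay below all young libraries, beside 8.78% of all genes. The part of these cell types in the Gpx3, Cyba and Gpx1 values was not tested.

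**Figure D3:**
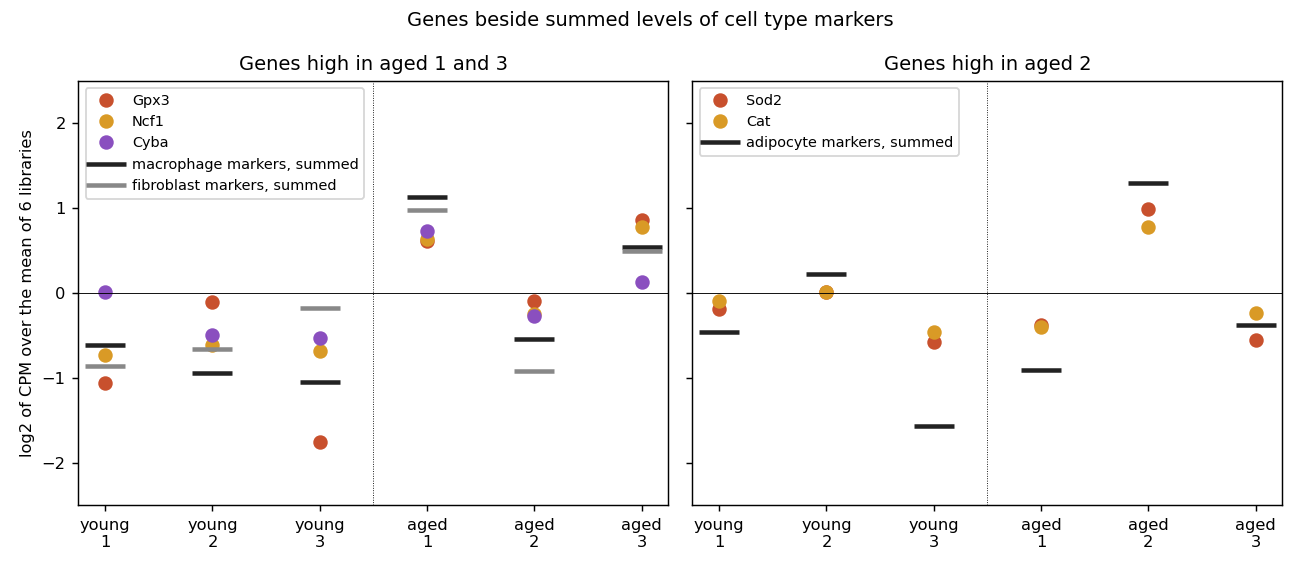
Log2 of the CPM in each library over the mean of the 6 libraries, for Gpx3, Ncf1 and Cyba beside the summed macrophage and fibroblast markers (left), and for Sod2 and Cat beside the summed adipocyte markers (right). Dots are genes and dashes are sums of markers. On the left the aged replicates 1 and 3 lie above 0 for all 5 series, and on the right aged replicate 2 is the highest library for all 3 series.

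The genes with a pattern most like those of the 3 most variable members were searched among the 10959 genes averaging 5 CPM or more, by the root mean square difference of log2 CPM over the 6 libraries after centring each gene on its mean. For Gpx3 they were Cd163 (0.21), Ftl1-ps1 (0.29) and C3 (0.29). Cd163, a scavenger receptor of macrophages, stood at 3.63, 8.65 and 3.55 CPM in young and 16.2, 9.91 and 20.1 CPM in aged aorta, and the complement component C3 at 145, 211 and 114 CPM and 510, 210 and 616 CPM. For Sod2 they were Idh3b (0.04), Chpt1 (0.07) and Ndufab1 (0.08), of which Idh3b, a subunit of the mitochondrial isocitrate dehydrogenase, stood at 111, 137 and 84.1 CPM in young and 98.2, 265 and 88.9 CPM in aged aorta. For Cybb they were Mgat1 (0.21), Rpl41 (0.23) and Ddx6 (0.24). With 6 libraries, such likeness describes these libraries only.

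On the FPKM scale the means of the 10 genes ran from 0.428 to 206. Gpx1 (mean of 6 libraries 206 FPKM, range 145 to 280) and Sod3 (185, range 159 to 218) led, and their ranges overlapped, with Gpx1 above Sod3 in 4 of 6 libraries. Every Sod3 value lay above every Gpx3 value (94.2, range 32.0 to 158). Gpx3, Cat (40.0), Sod1 (36.8), Nox4 (35.1) and Cyba (28.9) followed, each with a range that overlapped that of the next. Sod2 (6.89, range 4.19 to 13.0) lay below every value of Cyba. The phagocyte subunits Ncf1 (0.722, range 0.465 to 1.13) and Cybb (0.428, range 0.231 to 0.682) were lowest, and Ncf1 lay above Cybb in 5 of 6 libraries.

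**Figure D4:**
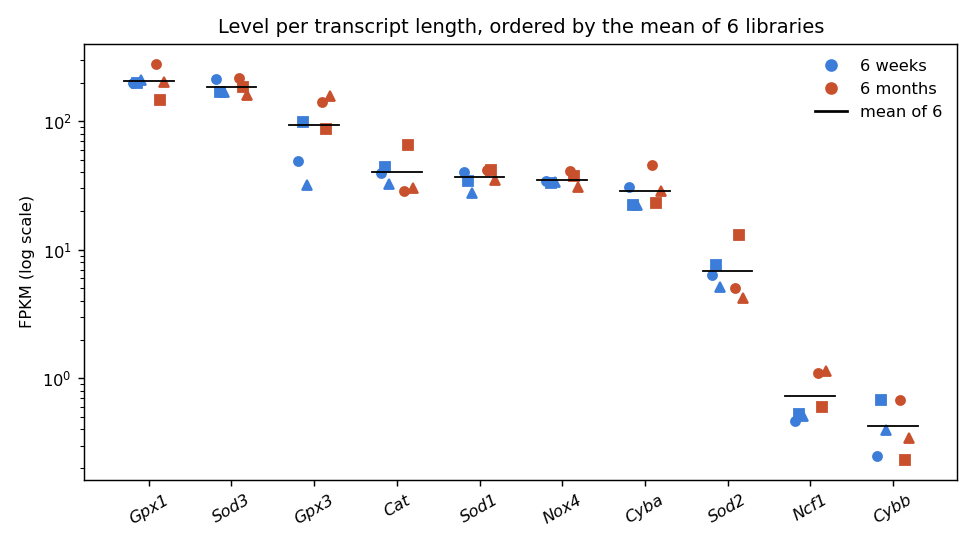
FPKM of the 10 genes in each library on a log axis, ordered by the mean of 6 libraries (line), with libraries of 6 weeks in blue and of 6 months in red. Gpx1 and Sod3 lie highest, at means of 206 and 185, and Ncf1 and Cybb lowest, at 0.722 and 0.428.

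Of the other genes of these pathways, 53 in 7 lists were tested. None passed adjustment in edgeR, and Xdh alone did in DESeq2. At an unadjusted p under 0.05, 5 were higher (9.43% beside 5.56% of all genes tested) and 3 lower (5.66% beside 4.82%), and the median log2 fold change was 0.26 beside 0.02 for all genes. With unscaled library sizes 1 was higher and 6 lower, and the median was 0.025 beside -0.22 for all genes. That setting gave 2933 of the 16612 genes tested an unadjusted edgeR p under 0.05 in either direction, against 1723 with TMM. The 2 genes with the smallest p of each list and the 1 with the highest FPKM are described.

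Of 15 further NADPH oxidase genes 9 were tested, 6 with a positive and 3 with a negative log2 fold change (median 0.14, and -0.091 with unscaled library sizes). Nox3 and the activator Noxa1 were at 0 in all libraries, and Nox1 was at 0 to 0.159 CPM, so that Nox4 was the only catalytic subunit of the family above 5 CPM in any library. Noxo1, the organizer of the Nox1 oxidase, stood at 11.8, 16.7 and 16.5 CPM in young and 8.76, 8.98 and 8.78 CPM in aged aorta, with all aged libraries below the young (log2 fold change -0.76 ± 0.20 (SE), edgeR p of 0.00705). Its count is uncertain, since 70.4% of its exon bases overlap Tbl3 on the other strand. Ncf4, a cytosolic subunit of the phagocyte oxidase, stood at 0.186 to 0.489 CPM in young and 0.424 to 1.77 CPM in aged aorta (log2 fold change 1.62 ± 0.69 (SE), edgeR p of 0.0504). Rac1, the GTPase, had the highest FPKM of the list (mean 41.4) and a log2 fold change of 0.16 that was -0.080 without the TMM scaling, and 51.4% of its exon bases overlap Daglb on the other strand.

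Among 7 other sources of oxidants all were tested, 2 with an unadjusted p under 0.05 in the higher direction and 1 in the lower (median 0.16, and -0.076 with unscaled library sizes). Xdh, the xanthine dehydrogenase that can act as an oxidase, stood at 20.7, 26.8 and 22.5 CPM in young and 48.7, 32.4 and 63.5 CPM in aged aorta. The groups did not overlap and aged replicates 1 and 3 were again highest. Its log2 fold change was 1.05 ± 0.26 (SE), with an adjusted p of 0.377 in edgeR and 0.0293 in DESeq2. Aoc3, a copper amine oxidase of smooth muscle and fat that releases hydrogen peroxide, was also the most abundant of the list (mean 74.1 FPKM) and went the other way. It stood at 475, 392 and 488 CPM in young and 274, 364 and 236 CPM in aged aorta, a log2 fold change of -0.63 ± 0.21 (SE, adjusted p of 0.403).

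The other peroxidases and the Sod1 chaperone Ccs formed the most uniform list. Of 11 genes 10 were tested, all with a positive log2 fold change between 0.23 and 0.46 (median 0.41), and none had an unadjusted p under 0.05. With unscaled library sizes all 10 were still positive, with a median of 0.18, and without aged replicate 2 there were 9. Prdx6 stood at 73.9, 69.7 and 54.0 CPM in young and 77.6, 92.5 and 90.7 CPM in aged aorta, and Prdx2, the peroxiredoxin that is also abundant in red cells, at 66.0 to 87.8 and 86.7 to 118 CPM. The summed red cell markers were 431 to 673 and 392 to 878 CPM in the 2 groups. Gpx4, which reduces lipid peroxides, was the most abundant (mean 135 FPKM), at 284, 223 and 152 CPM and 297, 361 and 237 CPM (log2 fold change 0.44 ± 0.27 (SE)). For Gpx4 this value was 0.68 without young replicate 1 (unadjusted edgeR p of 0.0439) and 0.22 with unscaled library sizes, where Prdx2 was at 0.16 and Prdx6 at 0.17.

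For glutathione, 6 of 7 genes were tested and the cystine carrier Slc7a11 was too low, at 0.0795 to 0.248 CPM. Gclc, the catalytic subunit of the rate-limiting ligase, stood at 24.4, 27.6 and 28.2 CPM in young and 30.3, 45.8 and 41.9 CPM in aged aorta, with no overlap (log2 fold change 0.56 ± 0.19 (SE), edgeR p of 0.0213, adjusted p of 0.415). With unscaled library sizes it was 0.32, with an edgeR p of 0.143, and the median of the list went from 0.14 to -0.093. Ggt5, a glutamyltransferase that cleaves extracellular glutathione conjugates, stood at 0.690 to 1.81 and 2.01 to 4.24 CPM. Glutathione reductase, Gsr, was the steadiest gene described, at 25.2 to 26.5 CPM in young and 27.1 to 27.4 CPM in aged aorta, and its log2 fold change of 0.06 was -0.17 without the TMM scaling.

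In the thioredoxin list 0 of 7 genes had an unadjusted p under 0.05, and the median was 0.20, or -0.046 with unscaled library sizes. Txn1, thioredoxin itself, stood at 73.5 to 91.0 and 85.8 to 129 CPM, and sulfiredoxin, Srxn1, which repairs overoxidized peroxiredoxins, at 22.9 to 41.7 and 39.9 to 44.7 CPM. Txnip, the thioredoxin inhibitor and the most abundant of the list (mean 78.7 FPKM), stood at 189 to 381 and 238 to 292 CPM, with a log2 fold change of 0.016 whose sign depended on the library left out.

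Genes that supply NADPH had a median of 0.58, with 6 of 8 log2 fold changes positive and 1 of 8 genes, Idh1, at an unadjusted p under 0.05. This median rested on aged replicate 2: without it the median was -0.20, 2 of 8 were positive and none had an unadjusted p under 0.05. Tkt, the transketolase, stood at 886 CPM in that library against 128 to 358 CPM in the other 5, Pgd at 231 against 45.9 to 80.5 CPM, and the malic enzyme Me1 at 394 against 88.8 to 200 CPM. Idh1, the cytosolic isocitrate dehydrogenase, stood at 36.3, 58.0 and 40.9 CPM in young and 68.5, 71.5 and 55.0 CPM in aged aorta. Its log2 fold change of 0.53 was 0.29 with unscaled library sizes. For G6pdx, the first enzyme of the pentose phosphate pathway, aged replicate 2 was far above the rest, at 118 CPM against 40.1 to 60.9 CPM in the other 5 libraries. Taldo1, the transaldolase of the same pathway, likewise reached 199 CPM there against 57.6 to 109 CPM, and its log2 fold change of 0.43 was -0.25 without that library. The part of the fat signal of aged replicate 2 in these values was not tested.

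Of 6 genes of the selenium supply 3 had a positive and 3 a negative log2 fold change (median -0.18, and -0.42 with unscaled library sizes). For 3 of the 6 all aged libraries lay below all young libraries, beside 8.78% of all genes. For 0 of the 6 did all lie above, beside 7.74%. Selenop, the plasma carrier of selenium, whose coding sequence holds 10 selenocysteine codons, was the most abundant (mean 161 FPKM), at 443, 356 and 377 CPM in young and 835, 422 and 661 CPM in aged aorta. Aged replicate 2 lay within the young range and the other aged libraries above it (log2 fold change 0.71 ± 0.26 (SE), edgeR p of 0.0296, adjusted p of 0.439). It was 0.47 without aged replicate 1 and, at an edgeR p of 0.110, also with unscaled library sizes. Pstk, the kinase that primes the selenocysteine transfer RNA, stood at 11.1 to 16.3 and 7.47 to 10.2 CPM (log2 fold change -0.71 ± 0.24 (SE)), but 58.8% of its exon bases overlap Ikzf5 on the other strand, which stood at 18.8 to 24.4 and 5.54 to 17.6 CPM.

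**Figure D5:**
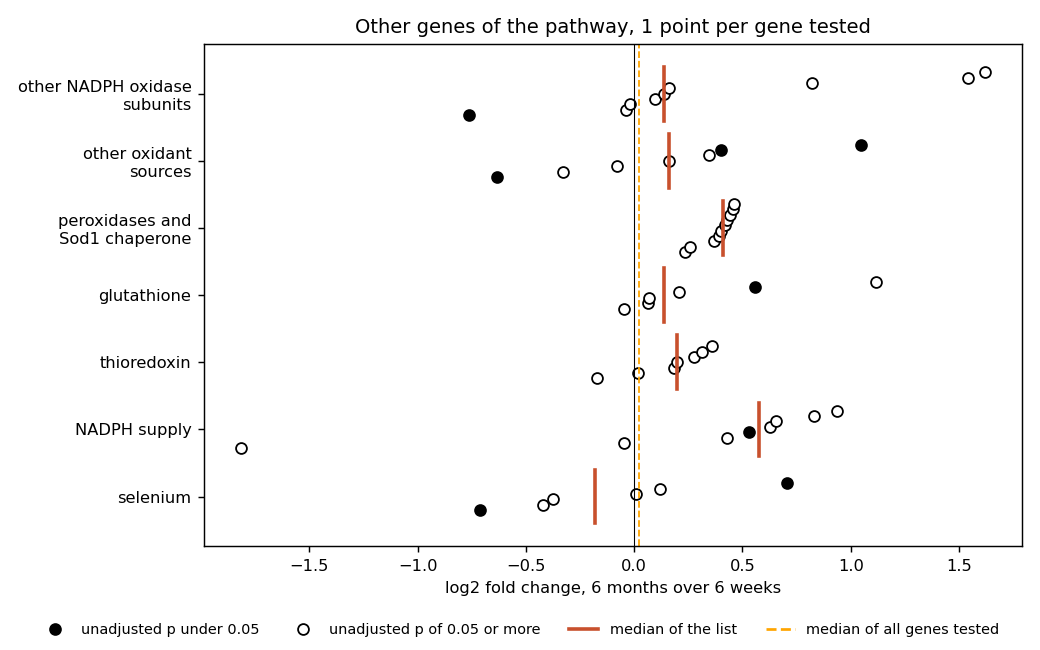
Log2 fold change of aged over young aorta for the 53 tested genes of 7 lists, 1 point per gene, filled where the unadjusted edgeR p was under 0.05, with the median of each list (red line) and of all genes tested (dashed). The 10 peroxidases and chaperone cluster between 0.23 and 0.46, and the median of the NADPH supply list, 0.58, is -0.20 without aged replicate 2.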

How the data were processed

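Aorta RNA of 3 young and 3 aged C57BL/6 mice was sequenced single-ended by the authors, and the build named in the submitters' processing notes is mm10. The aligner, the counting tool and the annotation are not given in the sources used here. The authors deposited read counts per gene, not normalized, and FPKM per gene. Within a gene, FPKM followed the counts over the library total closely where counts were high, and less closely where they were low.

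In R 4.3.3, counts were filtered by group with edgeR 4.0.16 (filterByExpr, minimum count 10, minimum total 15), scaled by TMM and fitted by quasi-likelihood without covariates, and p values were adjusted by Benjamini-Hochberg over every gene tested (threshold 0.05). Alternatives were RLE factors, no filter (at least 1 count), at least 10 counts in every library, DESeq2 1.42.0, limma 3.58.1 (log2 of FPKM plus 1, or plus 0.1), removal of mitochondrial genes, a replicate block, each library left out, and young replicate 1 and aged replicate 2 left out together. Unscaled library sizes were added after the data were seen. The fits were tested on simulated data. Lists and members were chosen with earlier results of these data known, and the genes named are all 10 members, the 2 with the smallest p and the 1 with the highest FPKM of each pathway list, the 3 most like each of the 3 most variable members, and markers beside a member. Ptprc, Itgam, Nox1, Nox3, Noxa1, Slc7a11, Tkt, Pgd, Me1 and Nnt were named after their values were seen. Gene coordinates are from GENCODE M21 (GRCm38).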

Additional observations from a re-analysis of the deposited data

How the results depend on the processing

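None of the 10 genes had an adjusted p under 0.05 under any alternative, the lowest being 0.0672 with DESeq2. Of all genes tested, DESeq2 called 338 and edgeR 0 to 110 with single libraries left out, where leaving out aged replicate 2 gave the 110, and for either count the cause was not tested. Of 160 alternative values of the 10 genes, 149 kept their direction. The other 11 were those of Cybb with limma on FPKM (-0.027 and -0.081 with pseudocounts of 1 and 0.1), with unscaled library sizes (-0.091) and without young or aged replicate 1, of Gpx1 with limma (-0.0062 and -0.0064), and of Sod2 and Cat without aged replicate 2, also with young replicate 1 left out (-0.21 and -0.11). With single libraries left out the log2 fold change ranged from -0.36 to 0.61 for Cybb, -0.23 to 0.70 for Sod2, -0.15 to 0.52 for Cat, -0.25 to 0.75 for Taldo1 and -0.18 to 0.36 for Txnip. Taldo1 was -0.02 without both libraries. With limma at pseudocounts of 1 and 0.1 and with unscaled library sizes, Rac1 was -0.069, -0.071 and -0.080, Gsr -0.14, -0.16 and -0.17, and Txnip -0.15, -0.15 and -0.22. Ncf1 and Gpx3 had an unadjusted p under 0.05 in most fits, but no member did without aged replicate 3, and Gpx3 did not without young replicate 1. With the replicate block, edgeR called 0 genes, and Cyba and Sod1 joined Ncf1 and Gpx3 at an unadjusted p under 0.05. Deviations of same-numbered libraries correlated at 0.0769, 0.133 and 0.125, each library best with its own number, and since 1 is under 0.1 the numbers were not taken as pairs. Depth limits Cybb and Ncf1 most, with at most 159 counts per library.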

Other observations

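Nnt, the mitochondrial transhydrogenase that makes NADPH, has a pair of overlapping gene models in GENCODE M21, which share 47.4% of the exon bases of the first, and the deposited counts are split between them in a way that differs from mouse to mouse. The first model took 4.15, 71.5 and 7.07% of their joint counts in young replicates 1, 2 and 3 and 31.5, 1.95 and 9.21% in aged replicates 1, 2 and 3. The joint counts were 1493, 1734 and 1894 in young and 920, 1285 and 673 in aged aorta, or 30.8, 49.8 and 55.2 CPM and 27.7, 34.1 and 23.8 CPM. The log2 fold change of -1.82 ± 1.30 (SE, adjusted p of 0.643 in edgeR) of the first model alone therefore follows the split as well as the level. These values were chosen after they were seen, and the cause of the split was not tested.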
